A study of Mus musculus with 16 samples.

Results

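The genes followed here are 10 genes of glucose use and of the response to low oxygen: *Slc2a1*, *Hk2*, *Ldha*, *Pgk1*, *Pfkfb3*, *Pkm*, *Eno1*, *Aldoa*, *Pdk1* and *Bnip3*. They were chosen by name, and each symbol matched 1 of the 55359 Ensembl genes in the count tables, so that all 10 were measured. Whole dorsal skin of wild-type C57Bl/6 mice (C57Bl/6N in the study's text) aged 8 weeks was sequenced, with 1 library for each of 16 mice and 4 mice in each group. The groups were UVB males, UVB females, and no-UVB males and no-UVB females as controls. UVB mice had 3 exposures, and skin was collected on day 5, at 6 h from the final exposure, with hair follicles at rest (telogen). Each library held all cell types of the skin together, so that in what follows fewer cells of a type and less RNA per cell cannot be told apart.

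Glycolysis splits glucose into pyruvate in the cytosol, and lactate dehydrogenase turns pyruvate into lactate when it is not burned in mitochondria. When oxygen is low, the hydroxylases that mark the transcription factor HIF1A for destruction slow down, and HIF1A with its partner ARNT switches on glucose transport, most steps of glycolysis and the genes that hold pyruvate back from mitochondria. In skin, keratinocytes run much of their energy supply through glycolysis even in air, and the muscle layer under the dermis carries its own isoforms of several of the enzymes.

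The promoter windows of 5 of the genes are shown because HIF binds a short core, ACGTG or GCGTG, and the genes differed both in how often it occurs and in how they changed. The sequences are those of RefSeq (250 bases before to 50 after a start site, from a table of GRCm38.p6), and each was found once, by exact match, at the GRCm39 position given. Where a gene had several windows, the one nearest to the start of its canonical GENCODE transcript was taken. Capitals mark ACGTG or GCGTG, or the same core read on the other strand as CACGT or CACGC. Where both strands match, as in CACGTG, each strand counts once and the matches overlap. All sequences run 5′ to 3′ on the gene's strand.
Slc2a1, chr4:118965692-118965991, plus strand: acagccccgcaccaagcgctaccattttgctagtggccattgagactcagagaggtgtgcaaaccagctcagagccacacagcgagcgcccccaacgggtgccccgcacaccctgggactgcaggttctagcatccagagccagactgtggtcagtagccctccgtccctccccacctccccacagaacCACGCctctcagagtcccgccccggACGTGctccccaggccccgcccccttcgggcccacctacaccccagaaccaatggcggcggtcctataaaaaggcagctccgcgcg
Eno1, chr4:150320915-150321214, plus strand: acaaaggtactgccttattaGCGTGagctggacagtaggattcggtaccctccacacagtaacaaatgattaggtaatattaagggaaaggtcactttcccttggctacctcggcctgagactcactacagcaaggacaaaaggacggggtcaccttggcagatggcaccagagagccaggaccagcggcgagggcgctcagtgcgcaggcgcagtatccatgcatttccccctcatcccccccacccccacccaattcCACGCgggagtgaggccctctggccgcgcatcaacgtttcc
Pfkfb3, chr2:11506852-11507151, minus strand: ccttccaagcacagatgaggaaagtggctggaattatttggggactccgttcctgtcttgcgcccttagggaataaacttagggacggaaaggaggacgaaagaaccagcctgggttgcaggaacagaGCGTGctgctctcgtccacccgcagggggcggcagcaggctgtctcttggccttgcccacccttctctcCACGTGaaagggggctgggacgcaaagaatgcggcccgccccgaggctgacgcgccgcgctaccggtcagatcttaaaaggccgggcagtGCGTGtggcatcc
Ldha, chr7:46494978-46495277, plus strand: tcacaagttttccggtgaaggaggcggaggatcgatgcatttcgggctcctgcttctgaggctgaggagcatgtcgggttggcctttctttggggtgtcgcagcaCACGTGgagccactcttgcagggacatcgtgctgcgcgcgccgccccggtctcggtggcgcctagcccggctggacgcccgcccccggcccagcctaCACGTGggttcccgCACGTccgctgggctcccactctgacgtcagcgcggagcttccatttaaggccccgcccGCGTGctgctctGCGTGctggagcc
Bnip3, chr7:138511186-138511485, minus strand: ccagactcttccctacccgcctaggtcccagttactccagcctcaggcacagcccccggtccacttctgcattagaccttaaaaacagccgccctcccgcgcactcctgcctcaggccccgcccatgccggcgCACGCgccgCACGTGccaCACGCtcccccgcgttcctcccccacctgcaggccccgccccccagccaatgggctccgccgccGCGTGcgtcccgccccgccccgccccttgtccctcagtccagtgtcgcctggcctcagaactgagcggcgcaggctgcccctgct

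The *Ldha* window held the core 7 times, that of *Bnip3* 5 times and that of *Pfkfb3* 4 times. The windows of *Slc2a1*, *Eno1*, *Hk2*, *Pgk1* and *Pdk1* held it 2 times each, that of *Aldoa* 1 time and that of *Pkm* not at all, though the other *Pkm* window held it 2 times. All 10 genes therefore had the core in at least 1 of their windows, as did 46.7% of the 27025 genes in the table. Among all 32851 windows of the table, 43.8% held it at least 1 time, 3.86% held it 4 times or more and 0.69% held it 6 times or more. A match is a run of letters and was not tested for binding.

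Levels are given as CPM, a gene's reads per 1000000 reads on genes, with libraries scaled by TMM, which assumes that most genes do not differ, and n is 4 mice for every mean ± SD. Reads on genes ranged from 16495776 to 33404831 per mouse, and the 10 genes had between 618 and 73641 reads in any mouse. Tests were edgeR's quasi-likelihood tests, adjusted over all genes tested by Benjamini-Hochberg, a gene was called where the adjusted p was under 0.1 whatever its fold change, and fold changes are log2 values with their standard error (SE). The study used the same adjusted p together with a shrunken log2 fold change over 1. None of the 10 genes had a fitted log2 fold change over 1 in size in any comparison of the groups alone, so 0 of 10 would be called with that minimum applied to the fitted values. The markers of sex matched the labels in all 16 mice. Markers of basal keratinocytes (6 genes) were at 4656 to 11770 CPM in sum and those of fibroblasts (6 genes) at 12040 to 86002 CPM. Skeletal muscle markers were abundant too, at 17751 to 32824 CPM in sum over 16 genes, and none was at 0.

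Between genes, levels were compared per kilobase (kb) of exons, since a long gene collects more reads. In no-UVB males *Aldoa*, which encodes the aldolase that cleaves the 6-carbon sugar, stood at 544 ± 50.8 CPM per kb. *Ldha*, which encodes a subunit of lactate dehydrogenase, followed at 169 ± 20.4, then *Pkm* (pyruvate kinase) at 56.8 ± 3.27 and *Pgk1* (phosphoglycerate kinase) at 49.3 ± 2.68. The ranges of these 4 genes did not overlap in no-UVB males, and *Aldoa* and *Ldha* held the first 2 ranks in all 4 groups. *Bnip3* (28.0 ± 5.47), *Hk2* (17.8 ± 3.42) and *Eno1* (16.4 ± 0.636) overlapped with their neighbours in the order, and *Pfkfb3* was at 14.1 ± 1.58. *Slc2a1* (7.93 ± 0.818) and *Pdk1* (7.68 ± 0.366) were lowest and overlapped. When the length of the canonical transcript was used in place of all exons, *Eno1* moved to rank 4 with 82.1 ± 3.19 CPM per kb, because the merged exons of *Eno1* cover 11500 bases and its canonical transcript 2293. *Pkm*, *Pgk1*, *Bnip3* and *Eno1* also have near-identical copies elsewhere in the genome, described below, and *Aldoa* and *Ldha* have none. If reads shared with copies went uncounted, the levels of the former genes are too low in this order.

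**Figure D1:**
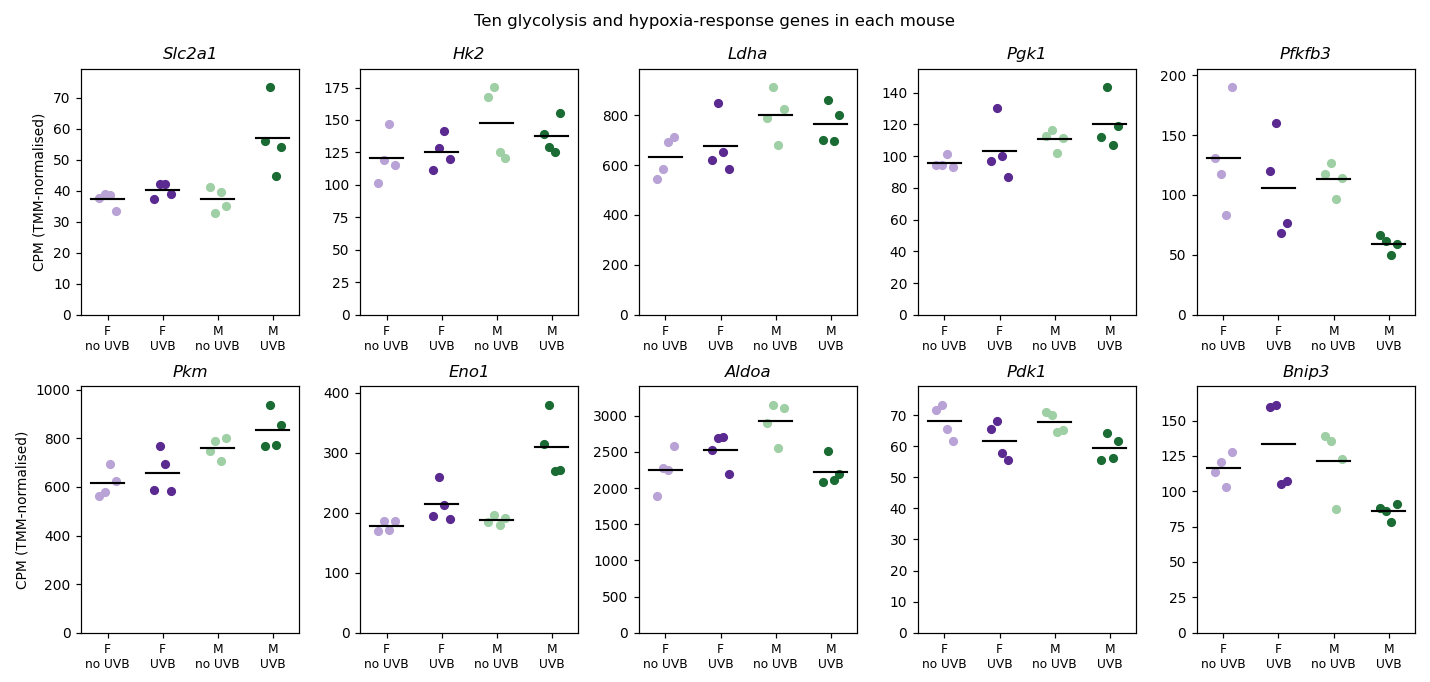
Normalised level of each of the 10 genes in every mouse (vertical axes, CPM from 0; horizontal axes, the 4 groups, F females and M males), with each point a mouse and each bar the mean of 4 mice. *Pfkfb3* is at 49.8 to 66.5 CPM in the 4 UVB males, under every other mouse, and *Eno1* is at 269 to 380 CPM there, over every other mouse.

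UVB moved the 10 genes in both directions in males and none past the threshold in females. In males *Eno1* (an enolase) and *Slc2a1* (the glucose transporter GLUT1) rose, while *Pfkfb3*, *Bnip3*, *Aldoa* and *Pdk1* fell, and *Hk2*, *Ldha*, *Pgk1* and *Pkm* did not pass the test. Among all 16535 genes tested in males 29.0% rose and 30.5% fell, 59.6% in all, so that 6 of 10 called is close to the share of all genes. Their fitted log2 fold changes had a median of -0.07, against -0.02 over all genes tested. The male groups did not overlap for both genes that rose (23.2% of all genes tested) and for 3 of the 4 that fell (24.0%).

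*Slc2a1* (ENSMUSG00000028645.12, chromosome 4 from 118965908 to 118996365 of GRCm39, plus strand) brings glucose into most cells, keratinocytes among them. It was at 41.2, 33.0, 39.6 and 35.0 CPM in the 4 no-UVB males and at 55.9, 73.5, 44.6 and 54.2 CPM in the 4 UVB males. The groups did not overlap, and replicate 2 of the UVB males stood highest. The rise was 0.63 (SE 0.14, edgeR adjusted p 0.0034). The females had 37.5, 38.9, 38.7 and 33.6 CPM without UVB and 37.4, 42.2, 42.2 and 38.9 CPM with it. These groups overlapped, and the difference of 0.11 (SE 0.07, 95% interval -0.05 to 0.27) did not pass the test (edgeR adjusted p 0.33).

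*Eno1* (ENSMUSG00000063524.14, chromosome 4 from 150321073 to 150337027, plus strand) encodes the enolase of most tissues, which makes phosphoenolpyruvate. No-UVB males had 185, 197, 180 and 191 CPM and UVB males 315, 380, 269 and 272 CPM, with a wide gap between the groups. The rise of 0.73 (SE 0.10, edgeR adjusted p 0.00016) was the largest among the 10 genes in males. Females had 170, 186, 171 and 187 CPM without UVB and 194, 259, 212 and 190 CPM with it. Every UVB female was over every no-UVB female, the pattern of 11.7% of all genes tested in females in that direction. The difference of 0.26 (SE 0.10) had an unadjusted p of 0.030 and an edgeR adjusted p of 0.12, and it passed the threshold in 1 of the 8 fits that left out a mouse, without UVB female replicate 4 (edgeR adjusted p 0.096). Over those 8 fits the value ranged from 0.16 to 0.32, and the adjusted p reached 0.23, without UVB female replicate 2.

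*Pfkfb3* (ENSMUSG00000026773.20, chromosome 2 from 11476244 to 11558888, minus strand) encodes the enzyme that makes fructose 2,6-bisphosphate, the strongest activator of phosphofructokinase, and so sets the pace of glycolysis. It was at 118, 127, 96.3 and 114 CPM in no-UVB males and at 66.5, 61.6, 49.8 and 58.7 CPM in UVB males. Every UVB male was lower than every no-UVB male, and the fall of 0.93 was the largest among the 10 genes (log2 fold change -0.93, SE 0.10, edgeR adjusted p 3.03e-05). Females varied far more, at 131, 117, 83.6 and 190 CPM without UVB and at 120, 160, 67.9 and 76.3 CPM with it. The female difference of -0.30 (SE 0.31, edgeR adjusted p 0.55) had a 95% interval from -0.99 to 0.38, which includes the size measured in males. It ranged from -0.57 to -0.06 over the 8 fits that left out a mouse.

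*Bnip3* (ENSMUSG00000078566.9, chromosome 7 from 138490690 to 138511253, minus strand) encodes a protein of the outer mitochondrial membrane that draws mitochondria into autophagy, and is a common marker of low oxygen. No-UVB males had 139, 135, 87.2 and 123 CPM, with replicate 3 well under the others, and UVB males had 88.3, 86.1, 78.3 and 90.7 CPM. The groups overlapped only through that mouse, and the log2 fold change was -0.48 (SE 0.13, edgeR adjusted p 0.011). Females were at 114, 121, 103 and 128 CPM without UVB and at 160, 161, 105 and 107 CPM with it, where replicates 1 and 2 stood apart from 3 and 4. The female difference was 0.20 (SE 0.16, edgeR adjusted p 0.43).

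*Aldoa* (ENSMUSG00000030695.17, chromosome 7 from 126393822 to 126399923, minus strand) had 2901, 3152, 2550 and 3101 CPM in no-UVB males and 2079, 2517, 2116 and 2192 CPM in UVB males. The highest UVB male was just under the lowest control, and the log2 fold change was -0.38 (SE 0.10, edgeR adjusted p 0.0091). Aldolase A is also the aldolase of muscle, and the skeletal muscle markers moved with it. In sum over 16 genes they were at 26713 to 32824 CPM in no-UVB males and at 18773 to 22989 CPM in UVB males, and 13 of the 16 fell, with a median log2 fold change of -0.62. In females they were at 17751 to 25707 and 19181 to 26991 CPM, and 0 of 16 passed the test, while *Aldoa* was at 1889, 2274, 2250 and 2581 CPM without UVB and 2530, 2688, 2708 and 2190 CPM with it (0.17, SE 0.14, edgeR adjusted p 0.45).

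*Pdk1* (ENSMUSG00000006494.12, chromosome 2 from 71703488 to 71734202, plus strand) encodes a kinase that shuts off pyruvate dehydrogenase and so keeps pyruvate out of the citrate cycle. It was at 70.8, 69.9, 64.5 and 65.3 CPM in no-UVB males and at 55.6, 64.3, 56.3 and 61.8 CPM in UVB males. The groups were separated by under 1 CPM, and the log2 fold change of -0.17 (SE 0.06) had an edgeR adjusted p of 0.043. The call was lost without UVB male replicate 1 or 3 or without no-UVB male replicate 1 or 2, with an edgeR adjusted p of up to 0.13. Females showed a difference of about the same size, from 68.1 ± 5.43 to 61.7 ± 6.06 CPM (-0.14, SE 0.09), that did not pass the test (edgeR adjusted p 0.33).

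The other 4 genes did not pass the test in either sex. *Hk2*, the inducible hexokinase, was at 147 ± 28.3 CPM in no-UVB males and 137 ± 13.3 in UVB males (-0.09, 95% interval -0.37 to 0.20). *Ldha* was at 802 ± 96.7 and 765 ± 81.4 CPM (-0.05, interval -0.28 to 0.18), and *Pgk1* at 111 ± 6.01 and 121 ± 16.2 CPM (0.14, interval -0.05 to 0.33). *Pkm* was at 762 ± 43.9 and 834 ± 80.2 CPM (0.15, interval -0.04 to 0.33), and its counts do not tell its 2 main splice forms apart. In females the differences of these genes lay between 0.05 for *Hk2* and 0.11 for *Pgk1*, with intervals that all included 0. UVB female replicate 2 was highest of its group for 8 of the 10 genes, all but *Hk2* and *Aldoa*, with 849 CPM for *Ldha*, 130 for *Pgk1* and 770 for *Pkm*.

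Across the females, 23.4% of 16883 genes tested were called (12.8% higher and 10.6% lower) and 0 of the 10. At an unadjusted p under 0.05, 1 of the 10 passed, *Eno1*, against 30.3% of all genes tested. DESeq2's Wald test called 1 gene higher in females, *Eno1*. The sign was positive for 8 of 10, and the median was 0.11 against 0.00 over all genes tested.

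**Figure D2:**
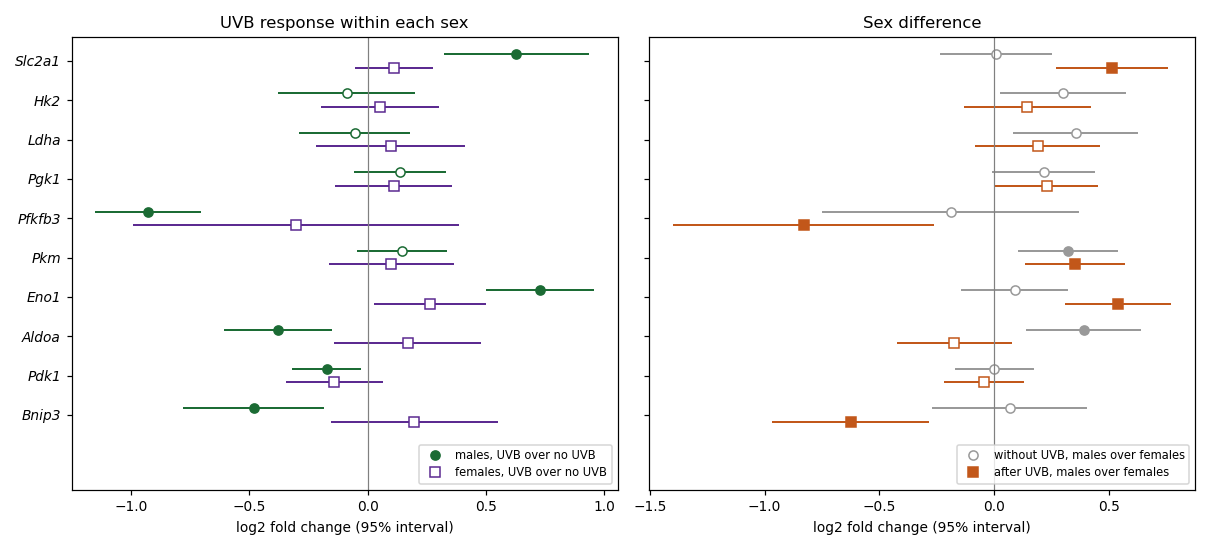
Fitted log2 fold changes of the 10 genes with 95% intervals (horizontal axes), for UVB over no UVB in each sex on the left and males over females within each treatment on the right. Filled symbols passed an edgeR adjusted p under 0.1. *Eno1* and *Slc2a1* lie to the right of 0 and *Pfkfb3* and *Bnip3* to the left in males, while no symbol for females is filled.

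The next comparison asked whether the response to UVB itself differed between the sexes, with all 16 mice in the fit. The response of *Slc2a1* was higher in males than in females, by 0.50 (SE 0.16, edgeR adjusted p 0.093). *Aldoa* and *Bnip3* responded lower in males than in females, by -0.56 (SE 0.16, adjusted p 0.072) and -0.69 (SE 0.22, adjusted p 0.099). Among all 17406 genes tested, 2.75% had a higher and 4.25% a lower response in males. All 3 calls were close to the threshold. That of *Slc2a1* was kept only without UVB female 3, no-UVB female 4, UVB male 3 or no-UVB male 3, among the 16 fits that left out a mouse, with values from 0.36 to 0.60. That of *Aldoa* was kept in 6 of the 16 (without UVB female 3 or 4, no-UVB female 4, UVB male 2 or 4, or no-UVB male 3) and that of *Bnip3* in 4 (without UVB female 3 or 4, no-UVB female 4 or no-UVB male 3). The sign was the same in every one of these fits. In males the muscle markers fell, and with their sum as a covariate all 3 calls were lost, at -0.17 for *Aldoa* (adjusted p 0.70), 0.58 for *Slc2a1* (adjusted p 0.24) and -0.55 for *Bnip3* (adjusted p 0.46).

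For *Eno1* the difference between the responses was 0.45 (SE 0.15, edgeR adjusted p 0.11), just over the threshold, and it passed in 3 of the 16 fits that left out a mouse (UVB female 2, UVB male 3 or UVB male 4). For *Pfkfb3* it was -0.64 (SE 0.37, 95% interval -1.43 to 0.15, adjusted p 0.34), so that the large fall in males was not shown to differ from that in females. The remaining 5 genes had differences between -0.17 (*Ldha*) and 0.03 (*Pkm*) and adjusted p-values of 0.64 or more.

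Without UVB, 2 of the 10 genes were higher in males and 0 lower, against 7.21% and 4.58% of all genes tested. *Aldoa* was at 2926 ± 273 CPM in males and 2249 ± 283 in females (0.39, SE 0.12, edgeR adjusted p 0.051), and *Pkm* at 762 ± 43.9 and 615 ± 59.7 CPM (0.32, SE 0.10, adjusted p 0.066). *Ldha* (0.35, adjusted p 0.11), *Hk2* (0.30, adjusted p 0.18) and *Pgk1* (0.22, adjusted p 0.24) were also higher in mean without passing the test. *Slc2a1* (37.2 CPM in both sexes), *Pdk1* (67.6 and 68.1 CPM) and *Bnip3* (121 and 116 CPM) lay closest together. Males and females did not overlap for *Pkm* and *Pgk1* (7.27% of all genes tested in that direction). Beside this, 9 of 16 skeletal muscle markers were higher in no-UVB males, with a median of 0.48, and fibroblast markers summed to 78469 to 86002 CPM in no-UVB males and 19115 to 20934 CPM in no-UVB females, with 4 of 6 called higher in males. The call for *Pkm* was lost without no-UVB female 1, 2 or 4 or no-UVB male 1, 2 or 4, with an adjusted p of up to 0.18, and that for *Aldoa* without no-UVB female 1 or 2 or no-UVB male 2 or 4 (up to 0.15).

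After UVB, 3 genes were higher and 2 lower in males than in females, against 12.8% and 12.5% of all genes tested. *Eno1* (309 ± 51.9 against 214 ± 31.8 CPM) was higher in males by 0.54 (SE 0.11, edgeR adjusted p 0.0040). *Slc2a1* (57.0 ± 12 against 40.2 ± 2.42 CPM) was higher by 0.51 (SE 0.11, adjusted p 0.0070), and *Pkm* (834 ± 80.2 against 659 ± 89.8 CPM) by 0.35 (SE 0.10, adjusted p 0.026). *Bnip3* was lower in males (85.8 ± 5.39 against 133 ± 31.4 CPM, -0.63, SE 0.16, adjusted p 0.015), and so was *Pfkfb3* (59.2 ± 7.02 against 106 ± 42.5 CPM, -0.83, SE 0.26, adjusted p 0.043). The sexes did not overlap for *Eno1* and *Slc2a1* (10.2% of all genes tested) or for *Bnip3* and *Pfkfb3* (10.7%). The call for *Pfkfb3* was lost without UVB female 1 or 2 or UVB male 3, with an adjusted p of up to 0.15. Adipocyte markers moved in the same comparison, with 7 of 8 lower in UVB males and a median of -0.78. The summed markers of 6 other lists were higher in every UVB male than in any UVB female. They were at 8324 to 11770 against 4656 to 7200 CPM for basal keratinocytes, 17299 to 23503 against 10595 to 14190 CPM for suprabasal keratinocytes, 3332 to 6158 against 838 to 1519 CPM for keratinocyte genes of wounded skin and 28379 to 39279 against 12040 to 22126 CPM for fibroblasts. For neutrophils they were at 53.1 to 159.9 against 21.3 to 30.8 CPM, and for dividing cells at 419 to 483 against 284 to 363 CPM. The part of these cells in the differences was not tested.

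Markers of other cells moved with UVB as well. In males 4 of 5 suprabasal keratinocyte markers rose and 1 fell (6803 to 10227 CPM in sum without UVB, 17299 to 23503 CPM with it). Of 6 basal keratinocyte markers 2 rose and 1 fell. A rise was also called for 4 of 4 keratinocyte genes of wounded skin, 4 of 6 neutrophil genes and 7 of 7 genes of dividing cells. Of 6 fibroblast markers 5 fell, of 9 macrophage markers 5 and of 8 adipocyte markers 5, and 0 of 5 erythrocyte and 0 of 5 endothelial markers passed the test. In females 4 of 5 suprabasal markers, 3 of 4 wound keratinocyte genes, 2 of 5 neutrophil genes and 7 of 7 genes of dividing cells rose. Of 6 basal keratinocyte markers 1 rose and 1 fell, of 6 fibroblast markers 1 rose and 1 fell, and of 9 macrophage markers 1 fell. None passed among 8 adipocyte, 5 erythrocyte and 5 endothelial markers. The part of these cells in the changes of *Slc2a1*, *Eno1*, *Pfkfb3* and *Bnip3* was not tested.

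**Figure D3:**
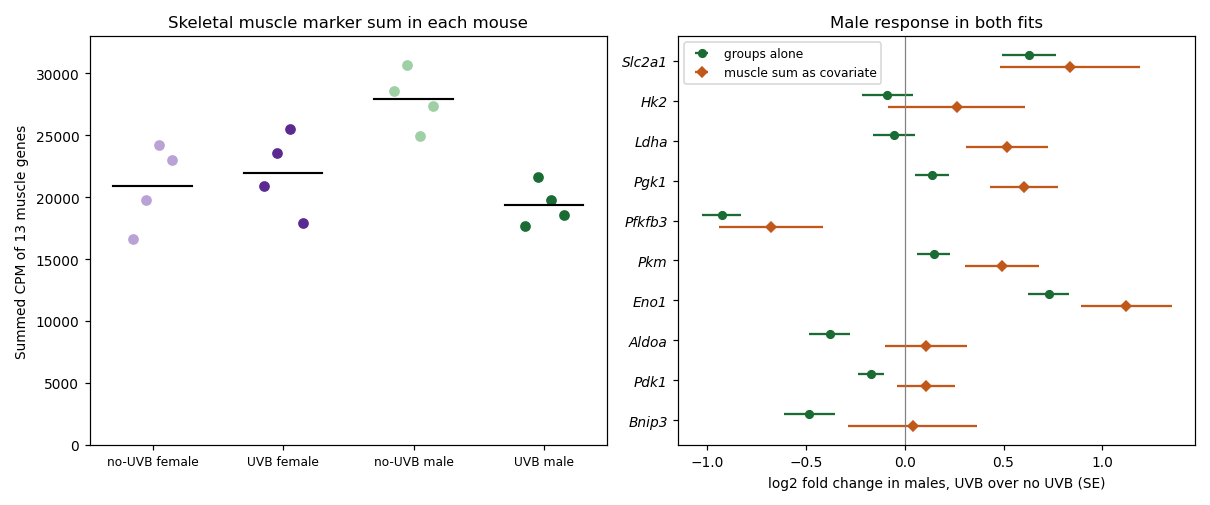
Left, summed CPM of 13 skeletal muscle genes in each mouse (vertical axis from 0; bars are means of 4 mice); right, log2 fold changes with SE of the 10 genes in males, UVB over no UVB, from the groups alone (circles) and with that sum as a covariate (diamonds). The 4 UVB males lie under the 4 no-UVB males on the left, and on the right the values of *Hk2*, *Ldha*, *Aldoa*, *Pdk1* and *Bnip3* change sign.

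Because the muscle sum of 13 genes (17660 to 21648 CPM in UVB males and 24976 to 30688 CPM in no-UVB males) did not overlap between the male groups, muscle content and UVB cannot be told apart in males. With the log2 of that sum as a covariate, calls over all genes in males went from 4802 higher and 5051 lower to 931 and 529. *Eno1* was still called, at 1.12 (SE 0.23, edgeR adjusted p 0.027), and *Pgk1* was called at 0.60 (SE 0.17, adjusted p 0.077). *Pfkfb3* was at -0.68 (SE 0.26, adjusted p 0.17) and *Slc2a1* at 0.84 (SE 0.35, adjusted p 0.22), both with the sign they had before. *Aldoa* (0.11), *Pdk1* (0.11) and *Bnip3* (0.04) were then on the other side of 0, with adjusted p-values of 0.72 or more. The same covariate ended both calls without UVB, where *Aldoa* went from 0.39 to 0.11 (adjusted p 0.77) and *Pkm* from 0.32 to 0.08 (adjusted p 0.83). In the sex differences after UVB, where 2 of 16 muscle markers were called, it left all 5 calls in place and added *Ldha* and *Pgk1* as higher in males (adjusted p 0.045 and 0.042).

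**Figure D4:**
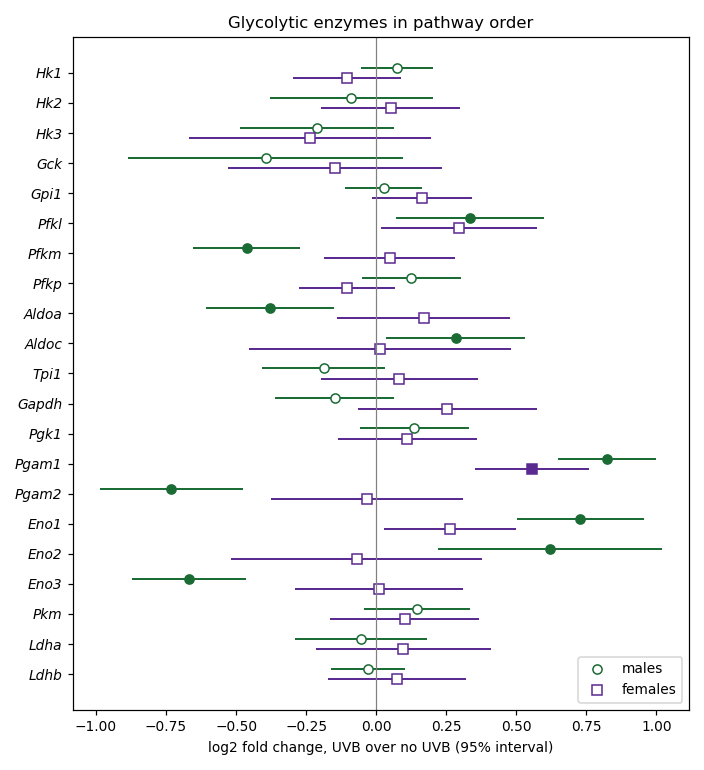
Log2 fold changes with 95% intervals (horizontal axis, UVB over no UVB) of 21 glycolytic enzyme genes in pathway order from the top, for males (circles) and females (squares). Filled symbols passed an edgeR adjusted p under 0.1. At the enolase and phosphoglycerate mutase steps *Eno1* and *Pgam1* lie to the right of 0 in males and *Eno3* and *Pgam2* to the left.

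The isoforms of single steps of glycolysis parted in males. Of 21 enzyme genes tested, the 10 genes' 6 enzymes among them, 5 rose and 4 fell in males (median -0.03), and 1 rose and 0 fell in females (median 0.08). In males 5 and 4 of 21 are below the shares of all genes that rose (29.0%) and fell (30.5%), and in females the shares of all genes were 12.8% and 10.6%. These shares are the background for the lists that follow. At the mutase step *Pgam1*, the isoform of most tissues, rose from 26.1 to 45.7 CPM in males (0.82, SE 0.08, edgeR adjusted p 1.08e-05) and from 23.4 to 34.4 CPM in females (0.56, SE 0.09, adjusted p 0.0034). *Pgam2*, the muscle isoform, fell in males from 227 to 136 CPM (-0.73, SE 0.11, adjusted p 0.00039) and was at 147 and 144 CPM in females. At the enolase step *Eno3*, which is also a muscle isoform, fell in males from 834 to 520 CPM (-0.67, SE 0.09, adjusted p 0.00012) beside the rise of *Eno1*, while *Eno2* rose from a low 3.91 to 5.93 CPM (0.62), though with the muscle covariate it was at -0.30 and not called. At the phosphofructokinase step *Pfkl* rose (0.33, adjusted p 0.035) and the muscle form *Pfkm* fell (-0.46, adjusted p 0.00091). The fall of *Eno3*, *Pgam2* and *Pfkm* differed between the sexes (-0.69, -0.71 and -0.52, adjusted p 0.036, 0.069 and 0.046). *Gapdh* (-0.15 in males and 0.25 in females) and *Ldhb* (-0.03 and 0.08) did not pass the test. The call of the difference was lost in 7 of 16 fits that left out a mouse for *Pgam2* and in 1, without UVB male 1, for *Pfkm*. *Eno3* and *Pgam2* are on the muscle marker list, so their fall is part of that list's count. With the muscle covariate *Eno3* (-0.20), *Pgam2* (-0.13) and *Pfkm* (-0.27) were not called in males, at edgeR adjusted p-values of 0.507 or more. *Pgam1* (1.01, adjusted p 0.024) and *Pfkl* (1.01, adjusted p 0.028) were still called.

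Among 11 transporters of glucose and lactate, 2 rose and 6 fell in males (all genes 29.0% and 30.5%), and 2 rose and 4 fell in females (12.8% and 10.6%). *Slc16a1*, which carries lactate and pyruvate across the membrane, rose from 60.0 to 95.9 CPM in males (0.69, SE 0.06, edgeR adjusted p 3.96e-06) and from 51.2 to 68.6 CPM in females (0.42, SE 0.09, adjusted p 0.012). *Slc2a12* fell in both sexes (-0.85 and -0.48), as did the lactate and pyruvate carrier *Slc16a7* (-0.82 and -0.41), and *Slc2a10* fell in males (-0.81). *Slc2a4*, the insulin-responsive glucose transporter of muscle and fat, fell in males (-0.36, adjusted p 0.0013) and was at 0.22 in females, and this response differed between the sexes (-0.59, adjusted p 0.030). With the muscle covariate *Slc16a1* was still called in males (0.75, edgeR adjusted p 0.025). The male calls of *Slc2a12* (-0.57), *Slc16a7* (-0.41), *Slc2a10* (-0.47) and *Slc2a4* (-0.02) were lost with it, at adjusted p-values of 0.249 or more. *Bsg*, the chaperone of the lactate carriers, was called higher in females (0.20, adjusted p 0.095), a call kept in 0 of the 8 fits that left out a mouse.

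Among 12 regulators of flux, *Pfkfb3* and *Pdk1* included, 2 rose and 5 fell in males, about the share of all genes called (59.6%), and 0 of 12 passed the test in females (23.4%). *Pfkfb4*, the paralogue of *Pfkfb3*, rose from 24.6 to 35.7 CPM in males (0.56, SE 0.08, edgeR adjusted p 0.00020), and *Pfkfb1* fell (-0.48, adjusted p 0.016). Of the pyruvate dehydrogenase kinases, *Pdk3* rose (0.26, adjusted p 0.026) and *Pdk2* fell (-0.33, adjusted p 0.0040; 0.11 and not called with the muscle covariate), while *Pdk4*, which fasting induces, was at -0.29 with an SE of 0.55 (adjusted p 0.68). *Txnip*, which binds thioredoxin and lowers glucose uptake, went from 1211 ± 695 to 564 ± 117 CPM in males (-1.09, SE 0.44, adjusted p 0.072), with groups that overlapped. That call was lost without any 1 of the UVB males or without no-UVB male 1 or 2 (adjusted p of up to 0.18), and with the muscle covariate the value was 0.62 (adjusted p 0.79). The male calls of *Pfkfb4* (0.30, adjusted p 0.42), *Pfkfb1* (-0.30, adjusted p 0.72) and *Pdk3* (0.08, adjusted p 0.87) were lost with that covariate too.

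**Figure D5:**
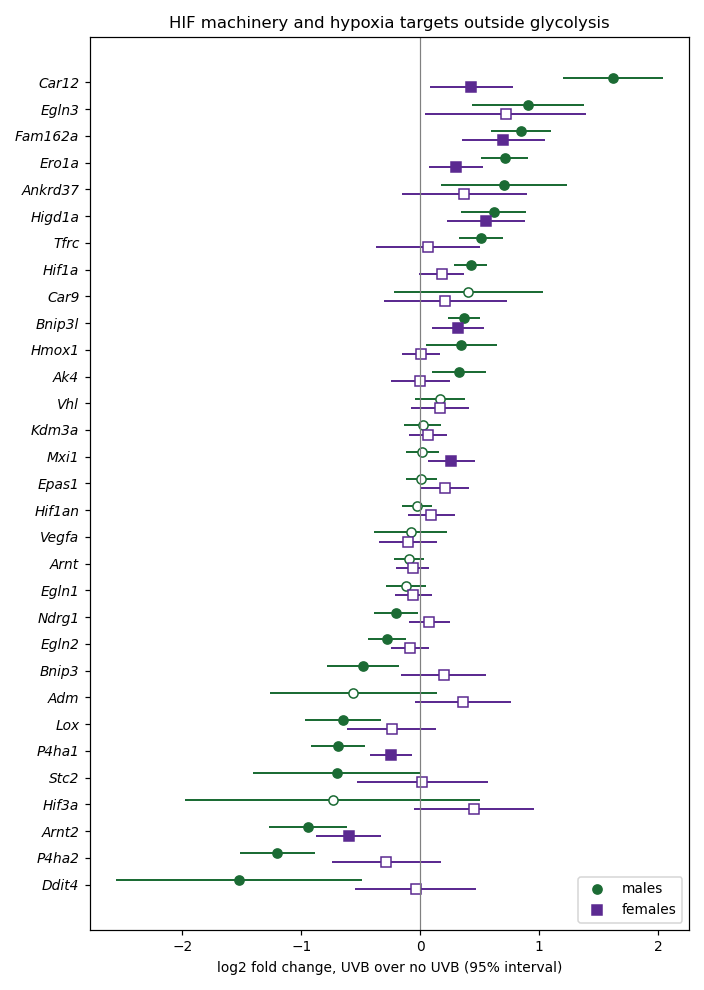
Log2 fold changes with 95% intervals (horizontal axis, UVB over no UVB) of 10 genes of the HIF machinery and 21 of the 22 hypoxia targets outside glycolysis, ordered by the male value, for males (circles) and females (squares). Filled symbols passed an edgeR adjusted p under 0.1. *Car12* is at 1.62 in males at the top and *Ddit4* at -1.52 at the bottom.

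Of 22 hypoxia targets outside glycolysis tested, *Bnip3* included, 9 rose and 8 fell in males (median 0.02; all genes 29.0% and 30.5%), and 6 rose and 1 fell in females (median 0.11; all genes 12.8% and 10.6%). *Car12*, a carbonic anhydrase, rose from 29.2 to 89.0 CPM in males (1.62, SE 0.18, edgeR adjusted p 0.00012) and from 40.4 to 54.5 CPM in females (0.43, adjusted p 0.084), and the male response was the larger (1.18, adjusted p 0.027). The female call of *Car12* was lost without any 1 of the UVB females or without no-UVB female 2 (adjusted p of up to 0.20). *Fam162a*, a mitochondrial protein, rose in both sexes (0.85 and 0.70), as did *Ero1a*, the oxidase of the endoplasmic reticulum (0.71 and 0.30), though in females its call was lost without any 1 of the UVB females or no-UVB female 3 or 4 (adjusted p of up to 0.15). *Ddit4*, an inhibitor of mTORC1, fell in males from 156 ± 89.2 to 53.7 ± 6.57 CPM (-1.52, SE 0.43, adjusted p 0.022), and the collagen prolyl hydroxylase *P4ha2* from 81.7 ± 17.5 to 35.2 ± 1.72 CPM (-1.20, SE 0.14, adjusted p 7.23e-05). The no-UVB males varied widely for *Ddit4* (71.3 to 241 CPM), yet each was over every UVB male. With the muscle covariate *Ddit4* was at 0.40 (adjusted p 0.87) and *P4ha2* at -0.46 (adjusted p 0.36), neither called. *Car12* (1.225, adjusted p 0.16) and *Ero1a* (0.59, adjusted p 0.17) kept their sign in males and were not called either. *Fam162a* was still called there (1.23, adjusted p 0.029). In females both genes did not pass the test (-0.04 and -0.28). The response differed between the sexes for *P4ha2* (-0.93, adjusted p 0.069), and for *Ddit4* it did not pass (-1.50, adjusted p 0.11). *Vegfa*, the vascular growth factor, was at 66.9 and 62.7 CPM in males and 81.1 and 75.5 in females, and did not pass the test in either sex. Fibroblast markers fell with *P4ha2* in males (5 of 6 called, 78469 to 86002 CPM in no-UVB and 28379 to 39279 CPM in UVB males), and their part was not tested.

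Of 10 genes of the HIF machinery, 2 rose and 2 fell in males, under the share of all genes called (59.6%), and 0 rose and 1 fell in females (23.4%). *Hif1a* rose from 101 to 134 CPM in males (0.42, SE 0.06, edgeR adjusted p 0.00018) and was at 0.18 in females (adjusted p 0.17). *Egln3*, a HIF prolyl hydroxylase that is itself a HIF target, rose from 51.0 to 94.6 CPM in males (0.90, SE 0.20, adjusted p 0.0057). In females its mean went from 52.8 to 87.1 CPM, but with an SE of 0.30 the difference of 0.72 did not pass (adjusted p 0.14). *Egln2*, another of these hydroxylases, fell in males (-0.28, adjusted p 0.0059; 0.05 and not called with the muscle covariate), and *Arnt2* fell in both sexes (-0.94 and -0.60). HIF1A protein, which hydroxylation controls, was not measured.

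In the pentose phosphate pathway 4 of 7 genes rose and 0 fell in males (median 0.23; all genes 29.0% and 30.5%), led by *G6pdx*, the dehydrogenase at its entry (0.59, SE 0.08, edgeR adjusted p 0.00011), *Pgd* (0.51, adjusted p 8.24e-05) and *Rpe* (0.36, adjusted p 0.00026). In females 1 of 7 rose. With the muscle covariate *Rpe* was not called in males (0.45, edgeR adjusted p 0.101). Of 21 genes of pyruvate dehydrogenase and the citrate cycle, 2 rose and 11 fell in males (median -0.16; all genes 29.0% and 30.5%), and 2 rose and 1 fell in females (median 0.06; all genes 12.8% and 10.6%). *Suclg2*, a subunit of succinyl-CoA ligase, fell in both sexes (-0.66 and -0.42), the female call being lost without UVB female 3 (adjusted p 0.10). *Sdhc*, a subunit of succinate dehydrogenase, fell in males (-0.29), and *Cs*, the citrate synthase, rose (0.22, adjusted p 0.0057) with *Dlst* (0.12, adjusted p 0.076). The call of *Dlst* was lost without UVB male 2 or 4 or no-UVB male 1 (adjusted p of up to 0.19). *Cs* was also called in females (0.26, adjusted p 0.084), in none of the 8 fits that left out a mouse. Skeletal muscle is rich in mitochondria, and the muscle markers fell in the same mice. With the muscle covariate *Suclg2* was still called in males (-0.82, edgeR adjusted p 0.041). *Sdhc* (-0.17, adjusted p 0.56), *Cs* (0.16, adjusted p 0.55) and *Dlst* (0.14, adjusted p 0.61) kept their sign and were not called. Muscle content and UVB cannot be told apart in these males.

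Among 11 genes of mitophagy tested beside *Bnip3*, 3 rose and 3 fell in males, close to the share of all genes called (59.6%), and 4 rose and 1 fell in females (23.4%). *Bnip3l*, the paralogue of *Bnip3*, rose in both sexes (0.37, edgeR adjusted p 0.00035, and 0.32, adjusted p 0.049), while *Bnip3* fell in males. Its female call was lost without UVB female 1 or no-UVB female 3 or 4 (adjusted p of up to 0.13). *Bcl2l13*, another mitophagy receptor, rose in males (0.56) and females (0.22), and *Phb2*, a prohibitin of the inner membrane, rose in both (0.35 and 0.24). With the muscle covariate the male values of *Bcl2l13* (0.36) and *Phb2* (0.43) were not called, each at an edgeR adjusted p of 0.14. *Pink1* (-0.22, adjusted p 0.072; 0.30 and not called with the muscle covariate) and *Sqstm1* (-0.14, adjusted p 0.082) fell in males, in calls kept in 3 and 2 of the 8 fits that left out a mouse. That of *Pink1* was lost without UVB male 1 or 4 or no-UVB male 1, 2 or 4, that of *Sqstm1* without any 1 of the UVB males or no-UVB male 3 or 4, and that of *Bcl2l13* in females without UVB female 1, 3 or 4 or no-UVB female 1 or 4 (adjusted p of up to 0.21).

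Among genes outside the 10 with a mean of at least 1 CPM, those whose profile over the 16 mice lay nearest to *Pfkfb3* were *St6galnac3*, *Sfxn4* and *Clec4b1*. Their root mean square differences in centred log2 CPM were 0.21, 0.21 and 0.24, and the median over 15105 genes was 0.58. The genes nearest to *Eno1* were *Glo1* (0.12), *Wdr62* (0.13) and *Ankrd13a* (0.13), and those nearest to *Slc2a1* were *Ankrd13a* (0.11), *Gla* (0.13) and *Dnmt1* (0.14). *Ankrd13a* was thus near to both genes that rose in males. This is a description with no test.

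Some of the 10 genes have near-identical copies elsewhere in the genome, so their counts depend on how reads were placed. At 95% identity or more over at least 200 bases, the canonical transcript of *Eno1* matched 4 other places, that of *Pgk1* 3, that of *Bnip3* 2 and that of *Pkm* 1, and the others matched none. The deposited tables list 0 reads as mapping to several places. Reads that match a gene and its copy equally well may thus be counted at neither. The low counts at the copies given below therefore cannot show whether reads of these genes were lost. At the *Pkm* copy, *6030443J06Rik* had 11 to 76 reads and *Gm6560* 5 to 20, against at least 11513 for *Pkm* in any mouse. At the *Pgk1* copies *Pgk1-rs7* had at most 3 reads, against at least 1855 for *Pgk1*, and another of these copies overlaps *Rab18*, an expressed gene with 2795 to 5401 reads. At the *Eno1* copies *Gm4735* had at most 5 reads, *Gm5855* 4 and *Eno1b* 2, against at least 3377 for *Eno1*, and at the *Bnip3* copies *Gm32857* had at most 5 and *Gm16439* 4, against at least 1348 for *Bnip3*. *Pgk2*, *Aldoart1*, *Aldoart2* and *Ldhc*, related genes of the germ line that did not match at this identity, had at most 0, 1, 2 and 4 reads.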

How the data were processed

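The authors extracted RNA from whole dorsal skin with TRIzol, made poly(A)-selected, strand-specific libraries and aligned 100 base reads to GRCm39 with STAR. The version of STAR and the annotation release are not given in the sources used here. The deposited tables hold raw read counts per gene in 3 columns, for both strands together and for each strand. The column for the reverse strand was used, since only 3.63 to 4.23% of strand-assigned reads lay on the other strand. Reads not on a gene were kept out of library sizes; 70.1 to 79.2% of reads were on genes, and multimapping reads are listed as 0. Of 55359 identifiers, 610 had no symbol in GENCODE M39.

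Genes passed edgeR's filterByExpr and were scaled by TMM. The UVB response was fitted in each sex alone (8 mice), and the difference between responses and the sex differences over all 16 mice, with edgeR 4.0.16 (R 4.3.3) quasi-likelihood tests and Benjamini-Hochberg adjustment over all genes tested. A call needs an adjusted p under 0.1. Intervals cover 95%. The scripts were tested on simulated data. Nothing in the labels ties mice by number, and each mouse is 1 library.

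The 10 genes and the gene lists were chosen with earlier results of these data known, and no list was tested as a set. Named genes are the 10, up to 3 with the largest rise and 3 with the largest fall in males among called genes of each list, near-identical copies, and *Gapdh*, *Ldhb*, *Hif1a*, *Egln3*, *Vegfa*, *Pdk4* and *Slc2a4* whatever they did; some genes of the lists are not reported here, and *Pgk1-rs7*, *6030443J06Rik* and the Gm genes at copies were named after their values were seen. Likeness was the root mean square difference of centred log2 CPM. Copies were sought with minimap2 2.31-r1302. The muscle covariate was the log2 sum of 13 of the 16 muscle markers, leaving out *Eno3*, *Pgam2* and *Pygm*. Alternatives were counts without strand, other scalings (size factors, upper quartile, library totals), DESeq2 1.42.0, other count filters, a threshold of 0.05 or a log2 fold change over 1, a replicate block, the muscle covariate and leaving out each mouse. The length of the canonical transcript was added after seeing the data.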

Additional observations from a re-analysis of the deposited data

Results flagged for a closer look

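The level of *Pgk1* in no-UVB female replicate 3 (101 CPM) lay far from the other 3 mice of its group (93.5 to 94.7 CPM), with a gap of 0.837 of the group's range, just over the limit of Dixon's test for 4 samples. It was the only one of 40 groups of 4 mice, 10 genes in 4 groups, to pass, and chance passes about 1 in 20.

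The response to UVB differed between the sexes, in the fit over all 16 mice with an edgeR adjusted p under 0.1, for 12 of the named genes, 3 of the 10 genes and 9 of 42 others. Over all genes 2.75% had a higher and 4.25% a lower response in males, and most of the 42 were named for a large change in males, which favours such a difference. As male minus female log2 responses, *Car12* was at 1.18, *Slc2a1* at 0.50 and *Bcl2l13* at 0.32. *P4ha2* was at -0.93, *Pgam2* at -0.71, *Eno3* at -0.69, *Bnip3* at -0.69 and *Slc2a4* at -0.59. *Aldoa* was at -0.56, *Pfkm* at -0.52, *Pdk2* at -0.49 and *Sdhc* at -0.33. The calls of *Eno3*, *Car12* and *Slc2a4* held in all 16 fits that left out a mouse. With the muscle covariate 0 of the 12 were called, and those 3 were at -0.23, 0.99 and -0.30 (edgeR adjusted p 0.51, 0.20 and 0.37). The call was lost without UVB male 1 for *Pfkm* and without UVB female 1, UVB male 1 or no-UVB male 2 for *Pdk2*, and in 7 to 12 of the 16 fits for the other 7 genes, with adjusted p-values of up to 0.20.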

How the results depend on the processing

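The male changes of *Slc2a1*, *Eno1*, *Pfkfb3*, *Aldoa* and *Bnip3* were called in every fit that left out a mouse. The labels do not pair the mice by replicate number, and correlations between mice did not settle it. Same-number correlations ran from -0.107 to 0.0532 in males and from -0.203 to 0.336 in females. UVB females 1 and 3 correlated best with the no-UVB female of their number, and the other UVB mice with another number. A replicate block gave 4680 higher and 4936 lower calls over all genes in males and 1966 and 1514 in females. With the block the difference of responses of *Slc2a1* was not called (0.49, edgeR adjusted p 0.103), that of *Eno1* was (adjusted p 0.0527), and *Pdk1* without UVB was at 0.00178. The cause of the shifts below was not tested.

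With the muscle covariate, 11 of the 37 male calls, 12 of the 14 female calls and 0 of the 9 differences of responses called among the other named genes were still called, and 31, 14 and 9 kept their sign. Male values turned for *Hk2* (0.262), *Ldha* (0.517), *Aldoa* (0.107), *Pdk1* (0.108), *Bnip3* (0.0402), *Eno2* (-0.297), *Txnip* (0.625), *Pdk2* (0.11), *Egln2* (0.0478), *Ddit4* (0.405) and *Pink1* (0.305). So did the differences of responses of *Hk2* (0.217) and *Ldha* (0.292) and the sex differences without UVB of *Slc2a1* (-0.0475), *Eno1* (-0.0826) and *Bnip3* (-0.0377). Library totals turned *Hk2* (-0.0447) and *Ldha* (-0.00394) in females, *Pdk1* in the difference of responses (0.0584), and *Slc2a1* (-0.158), *Eno1* (-0.0784) and *Bnip3* (-0.102) without UVB. Upper quartile scaling turned *Pgk1* in the difference of responses (-0.0081). *Slc2a1* without UVB, near 0 throughout, was at -0.0114 without regard to strand, -0.000866 with size factors, -0.013 with the upper quartile, -0.000814 by DESeq2, -0.000725 with every gene of at least 1 count and -2.93e-05 with at least 10 counts in every mouse.

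Leaving out a mouse turned values near 0. In males *Hk2* ranged from -0.1715 to 0.01851 and *Ldha* from -0.1151 to 0.02482. In females *Hk2* ranged from -0.0208 to 0.1491, *Ldha* from -0.03152 to 0.1635 and *Pgk1* from -0.01848 to 0.1888. In the difference of responses *Pdk1* ranged from -0.08285 to 0.01693, *Pgk1* from -0.08266 to 0.1365 and *Pkm* from -0.03026 to 0.1091. Without UVB, males against females, *Bnip3* ranged from -0.008727 to 0.2005, *Pdk1* from -0.06337 to 0.0289, *Pfkfb3* from -0.373 to 0.02689 and *Slc2a1* from -0.05598 to 0.06062. After UVB *Pdk1* ranged from -0.09339 to 0.003141.

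Counts of the 10 genes moved as follows. With a log2 fold change over 1 required, 0 were called in either direction in any comparison. The covariate gave 0 lower in males, 0 and 0 in the difference of responses, 0 higher without UVB and 5 higher after it. A threshold of 0.05 gave 0 and 0 in the difference of responses and 0 higher without UVB. In females DESeq2 called 1 higher and library totals 1 lower. In the difference of responses, higher calls were 0 without strand, with the upper quartile and with every gene of at least 1 count, and 2 with size factors, totals, DESeq2 and at least 10 counts. Lower calls there were 1 with size factors, totals and every gene of at least 1 count. Totals gave 0 higher without UVB, and every gene of at least 1 count gave 1 lower after it. Leaving out a mouse gave 2 higher and 3 to 4 lower in males, 0 to 1 higher in females, 0 to 2 higher and 0 to 2 lower in the difference of responses, 0 to 4 higher without UVB, and 3 to 5 higher and 1 to 2 lower after it. By canonical transcript length, 3, 6, 4 and 3 of the 10 genes kept their rank in no-UVB males, UVB males, no-UVB females and UVB females.

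Over all genes, the share of higher among called genes was 54.7% in females, 27.6% with totals and 44.6% with the upper quartile. In the difference of responses it was 39.2%, 69.7% with totals, 51.7% with size factors and 53.9% by DESeq2. Without UVB it was 61.2% and 12.3% with totals, which moved the median of all genes to -0.165, and after UVB 50.6%, 26.4% with totals and 37.7% with the upper quartile.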
